A study of Mus musculus with 52 samples.

Results

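The 39 genes described here encode factors that build ribosomes. They are a fixed list of symbols, and each symbol matched 1 row among the 49466 genes of both count tables. A ribosome starts in the nucleolus, where RNA polymerase I transcribes the ribosomal RNA precursor. Small nucleolar RNA particles of the box C/D and box H/ACA classes then methylate and pseudouridylate that precursor, and large sets of processing factors cut and fold it into the small and the large subunit. The transcription factor Myc is known to drive many of these genes, and defects of ribosome assembly are known to impair red cell production.

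The cells were daughters of burst-forming unit-erythroid cells (BFU-E), progenitors of the red cell lineage. Founders came from C57/Bl6J mouse fetal liver at embryonic day 14.5, after removal of cells that carried surface markers of mature blood cells, stem cells, granulocytes or megakaryocytes, and were cultured for 16 hours, each alone in its well. One group of 13 founders had no drug and the other group of 13 had 100 nM dexamethasone, a synthetic glucocorticoid. After 1 division both daughters were sequenced, which gave 52 single-cell RNA libraries. The labels name no animal, so founders may share an embryo. The p-values of comparisons between pairs measure the spread between founders. Those of the test of founder differences set that spread against the one between sisters.

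Libraries with fewer than 100000 counts were left out. The other 48 libraries held 210383 to 5606500 counts and 3886 to 9473 detected genes, and they made up 12 untreated and 13 dexamethasone pairs. Both daughters of 5 pairs went against the label of an erythroid progenitor. In those 10 libraries a median of 6.5 of the granulocyte and monocyte markers reached 10 CPM (counts scaled to the same total in every library), with Mpo between 12.17 and 14.55 on the log2(CPM + 1) scale. Their summed erythroid marker level was 11.7 to 1002 CPM, against 1463 to 16316 CPM in the other 38 libraries. Stem cell markers summed to 136 to 1745 CPM in those 10 libraries, with at least 1 of 5 markers at 10 CPM in each, and to 0 to 431 CPM (median 1.24) in the other 38. Mast cell markers summed to 0 to 1154 CPM (median 0.38) and 0 to 54.6 CPM (median 0). Megakaryocyte markers summed to 0.31 to 978 CPM (median 4.02) in those 10 libraries and to 0 to 1062 CPM (median 23.5) in the other 38. The part of these markers in the results was not tested. These 5 pairs are called myeloid-like here and the other 20 pairs erythroid-like. Among the latter, each daughter of dexamethasone pair 8 had 4 of 12 erythroid markers at 10 CPM. Their megakaryocyte markers summed to 1062 and 715 CPM. The myeloid-like pairs are untreated pairs 9 and 10 and dexamethasone pairs 6, 7 and 10. No pair had 1 daughter of each class, although both libraries of dexamethasone pair 10 lay within 2 log2 units of the class boundary. Its cell 2 lay within 1 log2 unit, with 9 erythroid markers and 9 granulocyte and monocyte markers at 10 CPM. None of the 39 genes was used to define the classes, and the classes are not groups of the study. Another library stood apart: cell 1 of dexamethasone pair 12, the shallowest one kept, had 210383 counts and 3886 detected genes. The rule put it among the erythroid-like libraries, but its Mpo level, 12.46 on the log2(CPM + 1) scale, lay in the myeloid-like range, and with Mpo above Gata1 as the rule it would be myeloid-like and its sister erythroid-like. The same holds for cell 1 of dexamethasone pair 9, with Mpo at 9.12 and Gata1 at 8.90.

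The E-box CACGTG is the sequence that Myc with its partner Max is known to bind, so the start sites of the genes were searched for it. RefSeq promoter windows of GRCm38.p6, from 250 bases before to 50 bases after the annotated start, were found for 32 of the 39 genes. The motif reads the same on both strands. It was present in the windows of 6 genes (18.75%), in those of 22 of 105 other ribosome biogenesis genes (20.952%) and in those of 2187 of all 27025 genes with a window (8.093%). The 6 motifs are shown in capitals with up to 30 bases on each side, 5′ to 3′ on the strand of the gene. They lie at chr6:125131793-125131858 (plus strand) for Nop2, chr10:88826765-88826807 (minus) for Utp20, chr11:3963947-3964012 (plus) for Pes1, chr11:72441337-72441376 (plus) for Mybbp1a, chr11:74898074-74898129 (plus) for Tsr1 and chr17:71616202-71616264 (plus) for Wdr43.
Nop2: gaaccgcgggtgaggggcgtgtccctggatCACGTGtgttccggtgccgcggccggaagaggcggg
Utp20: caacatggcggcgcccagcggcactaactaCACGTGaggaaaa
Pes1: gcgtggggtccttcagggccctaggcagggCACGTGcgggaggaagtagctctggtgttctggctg
Mybbp1a: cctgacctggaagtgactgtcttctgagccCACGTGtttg
Tsr1: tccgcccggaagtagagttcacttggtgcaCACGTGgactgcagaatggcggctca
Wdr43: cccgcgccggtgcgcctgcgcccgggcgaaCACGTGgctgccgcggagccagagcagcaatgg
Only the Nop2 motif lies before the start site, by 60 bases. A match is a description of the letters, not of binding.

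Nearly all of the genes were detected in nearly all cells. Each was found in 38 to 48 of the 48 libraries, with Utp20 and Rrp12, both factors of the small subunit, in the fewest (38 and 39). Levels between genes were compared per exon length, in TPM (counts divided by the GENCODE exon union and scaled to a fixed total). Npm1, which encodes the abundant nucleolar chaperone nucleophosmin (chromosome 11, 33152287 to 33163206), had the highest median at 3548 TPM. Nhp2 and Nop10, small proteins of the box H/ACA particle, followed at 2007 and 887 TPM, and Ncl, which encodes nucleolin (chromosome 1, 86344719 to 86359400), stood at 718 TPM. At the other end were Utp20 at 4.08 TPM and Polr1a, the largest subunit of RNA polymerase I, at 11.1 TPM. Between pairs, Ncl varied least, with an SD of 0.49 on the log2(CPM + 1) scale (n = 25), and Rrp12 varied most, with an SD of 3.02. The map of all 39 genes by library shows Npm1 and Ncl high in nearly every cell, and low or missing values spread over the less abundant genes.

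**Figure D1:**
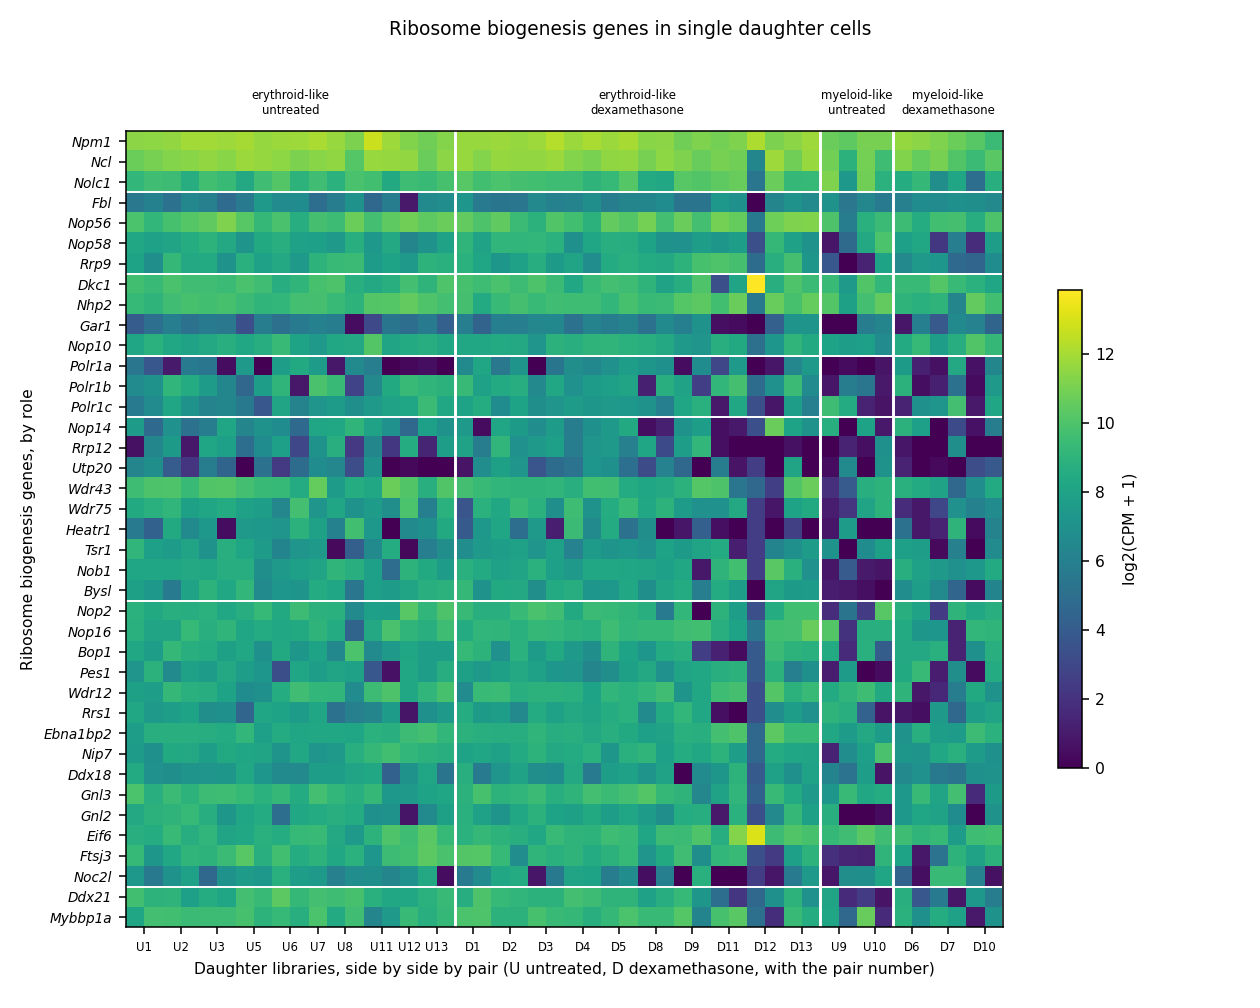
Level of each of the 39 genes as log2(CPM + 1) (color) in each of the 48 libraries (columns, side by side by pair), with genes grouped by role and libraries by class and treatment. Dark cells lie in the 10 myeloid-like libraries on the right and also in erythroid-like ones. Among the latter are both daughters of dexamethasone pairs 11 and 12. In cell 1 of dexamethasone pair 12 (the left column of D12) Dkc1, Eif6 and Npm1 are bright.

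Dexamethasone gave no called change of any of the 39 genes. Npm1 stood at 1492, 3175 and 5124 CPM (lowest, median and highest of 12 untreated pairs) and at 945, 2915 and 4298 CPM in the 13 dexamethasone pairs. Ncl stood at 1102, 2489 and 3371 CPM untreated and at 999, 2488 and 3272 CPM with dexamethasone. The ranges overlapped almost fully for both genes. The fitted log2 fold change, with its standard error, was −0.08 ± 0.17 for Npm1 and 0.08 ± 0.17 for Ncl. In edgeR's quasi-likelihood test with Benjamini-Hochberg adjustment, 0 of 6676 genes were called at an adjusted p under 0.05 (0%), and 0 of the 39. At an unadjusted p under 0.05 there were 84 genes, again with 0 of the 39. DESeq2 and limma-trend also called 0 of the 39. The fitted change was positive for 25 genes and negative for 14, with a median of 0.08, against a median of 0.04 over all 6676 genes.

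The 39 genes were also looked at by role. The smallest p-values among positive changes belonged to Ebna1bp2 (0.45 ± 0.27), Eif6 (0.47 ± 0.29) and Nob1 (0.66 ± 0.51). Ebna1bp2 and Eif6 act on the large subunit, where Eif6 keeps the new subunit from joining the small one, and Nob1 is the nuclease that makes the mature end of the small subunit RNA. Among negative changes they belonged to Wdr43 (−0.51 ± 0.46) and Heatr1 (−0.85 ± 0.82), 2 scaffold proteins of small subunit assembly, and to the helicase Ddx21 (−0.45 ± 0.52). The box C/D core proteins fibrillarin, the methyltransferase encoded by Fbl, and Nop56 had changes of 0.46 ± 0.48 and 0.21 ± 0.24. The edgeR adjusted p was 0.9998 for each of these 8 genes. In the 10 and 10 erythroid-like pairs alone the median change of the 39 genes was 0.25, against 0.05 over all genes, and 0 genes were called among them. Of 117 other ribosome biogenesis genes that were tested, 0 were called and the median was −0.02. Of 13 host genes of small nucleolar RNAs, 0 were called and the median was −0.002.

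The same comparison can be read from a score, the mean log2(CPM + 1) of the 39 genes in a library, averaged over the daughters of a pair. Untreated pairs scored 7.51 ± 0.97 (SD, n = 12) and dexamethasone pairs 7.38 ± 0.98 (n = 13). The median difference in mean log2(CPM + 1), dexamethasone minus untreated, was −0.13 over the 39 genes, of which 22 were lower. Over all 6676 genes it was −0.17, with 60.7% lower. In erythroid-like pairs it was −0.14 over the 39 genes, of which 24 were lower, and −0.33 over all genes, with 67.8% lower. Within the erythroid-like pairs the untreated ones lay close together, between 7.42 and 8.52, whereas the dexamethasone ones ran from 5.50 to 8.47. The lowest of the latter were dexamethasone pairs 12 (5.50) and 11 (6.76), both in library plate column 7. Dexamethasone pairs lay in columns 3, 4, 6 and 7 and untreated pairs in columns 1, 2, 5 and 6, so that treatment and single columns cannot be told apart except in column 6.

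The larger contrast lay between the classes. Of the 39 genes, 33 had a lower fitted level in myeloid-like than in erythroid-like pairs, with a median log2 fold change of −0.49, against 0.01 over all 6676 genes, of which 3321 were lower. Ncl, a nucleolar protein that binds the nascent ribosomal RNA, was the 1 gene that passed the test. Its levels were 999, 1102, 1224, 1810 and 1836 CPM in the 5 myeloid-like pairs. In the 20 erythroid-like pairs they were 1828, 2667 and 3371 CPM (lowest, median and highest), so that a single myeloid-like pair, dexamethasone pair 6, lay just inside the erythroid-like range. Ncl was 1.65-fold lower (log2 −0.72 ± 0.17, edgeR adjusted p = 0.0189).

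The share of 1 gene in 39 was near that of all genes. Over all 6676 genes, 174 were called (2.61%), of which 105 were lower (1.57%) and 69 higher (1.03%) in myeloid-like pairs. The Ncl call did not hold without untreated pair 9 (edgeR adjusted p = 0.0646), untreated pair 10 (0.0627) or dexamethasone pair 10 (0.056), and the number of the 39 genes called went from 0 to 4 when single pairs were left out. DESeq2 called 7 of the 39, against 591 of 6676 genes (8.85%), and limma-trend 6, against 372 genes (5.57%). Marker levels, plate columns and the number of detected genes differed between the classes as well, and their part in the difference was not tested.

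Below the threshold the smallest p-values belonged to Rrp9, Polr1b, Ddx21, Bysl, Nop56 and Npm1. Rrp9, a box C/D protein that binds the U3 small nucleolar RNA, stood at 5.53, 65.9, 119.6, 149.7 and 160.4 CPM in the myeloid-like pairs and at 178, 363 and 945 CPM (lowest, median and highest) in the erythroid-like pairs. Its groups did not overlap, which held for 15 of 6593 genes in this direction (0.2275%) and for no other gene of the 39. Its log2 fold change was −1.80 ± 0.51 (edgeR adjusted p = 0.0515). Polr1b, the second largest subunit of RNA polymerase I, stood at 10.5, 16.5, 31.5, 90.0 and 165.9 CPM against 97.8, 234 and 944 CPM, and overlapped only through dexamethasone pair 6. Its log2 fold change was −2.26 ± 0.65 (edgeR adjusted p = 0.0577). Ddx21, a helicase of ribosomal RNA transcription and processing, had medians of 108 and 494 CPM, with a log2 fold change of −2.23 ± 0.66 (edgeR adjusted p = 0.0703). Bysl, a late factor of the small subunit, had medians of 40.2 and 249 CPM, with a log2 fold change of −2.29 ± 0.77 (edgeR adjusted p = 0.123). Nop56, a box C/D core protein, had medians of 596 and 1183 CPM, and its log2 fold change was −0.81 ± 0.28 (edgeR adjusted p = 0.138). Npm1 had medians of 2038 and 3316 CPM, and its log2 fold change was −0.53 ± 0.20 (edgeR adjusted p = 0.205). Rrp9 passed the threshold without untreated pair 10 (edgeR adjusted p = 0.0372), dexamethasone pair 2 (0.0485) or dexamethasone pair 12 (0.0493), and Polr1b passed it without dexamethasone pair 6 or 12.

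By role, the median log2 fold changes were −1.57 for the helicase and transcription regulators Ddx21 and Mybbp1a, −1.46 for RNA polymerase I, −0.53 for the nucleolar phosphoproteins and −0.46 for box C/D, and differences between roles were not tested. All 9 small subunit genes had negative fold changes, with a median of −1.17 on the log2 scale and 0 called. Among them were the scaffold proteins Wdr43, Wdr75, Utp20 and Heatr1 and the late factors Bysl, Tsr1 and Nob1. Of the 14 large subunit genes 11 were negative, with a median of −0.37 and 0 called. Of the 4 box H/ACA genes, which encode the pseudouridine synthase dyskerin (Dkc1) and its partners, 3 were negative, with a median of −0.05. The smallest p-values among positive changes belonged to Noc2l (0.96 ± 0.85), Nop10 (0.35 ± 0.32) and Polr1c (0.59 ± 0.69), and none was called. Each of those 3 changes turned negative when 1 pair was left out, dexamethasone pair 7 for Noc2l (−0.60), dexamethasone pair 10 for Nop10 (−0.00060) and untreated pair 9 for Polr1c (−0.31). Fbl had a change of 0.48 ± 0.57. The medians of pair levels were lower in myeloid-like pairs for 37 of the 39 genes. The exceptions were Fbl (90.2 against 73.1 CPM) and Eif6 (689 against 538 CPM). The share over all genes was not computed for these medians. The class difference in mean log2(CPM + 1) was negative for 74.1% of all 6676 genes and for 36 of the 39.

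**Figure D2:**
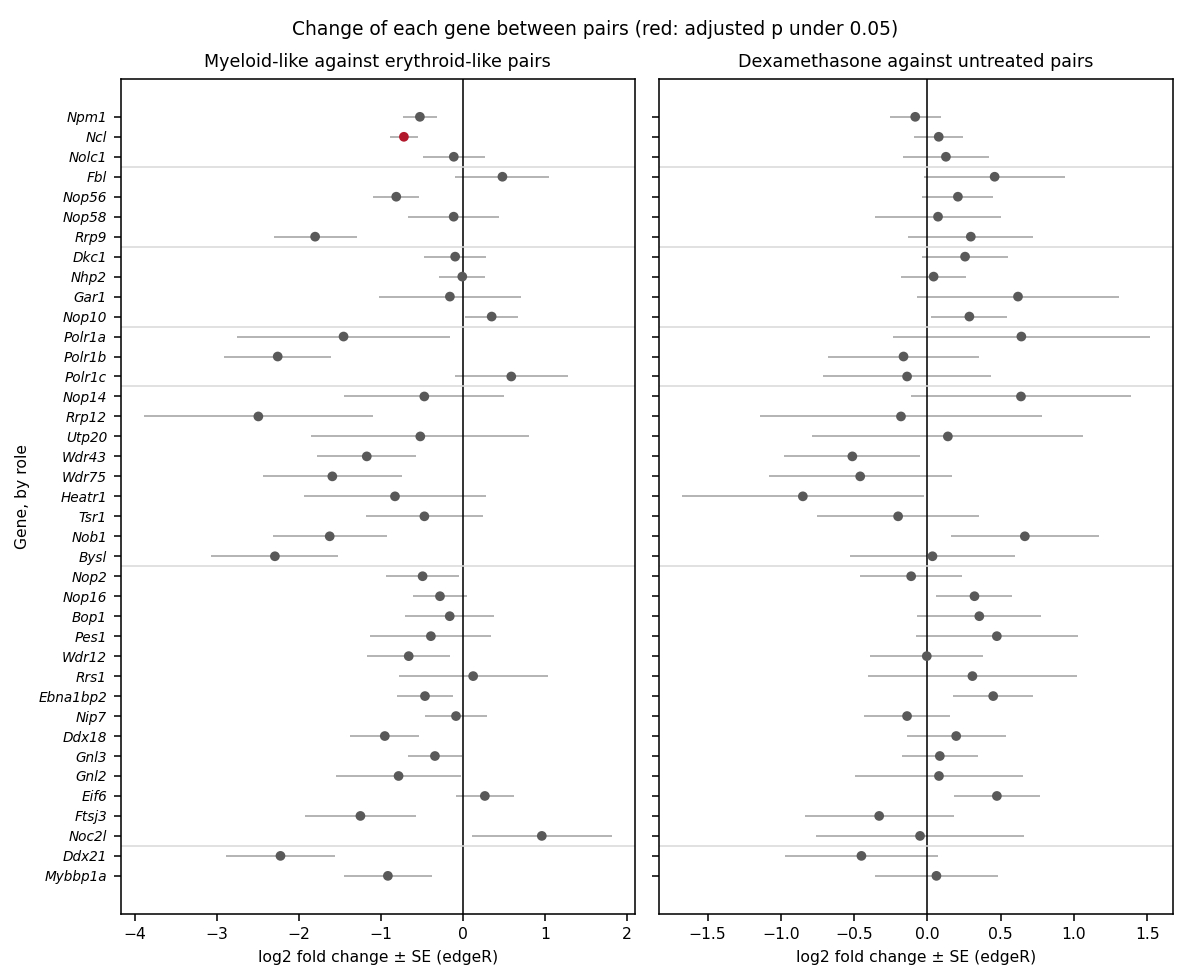
Log2 fold change with its standard error (edgeR) of each of the 39 genes, by role, for myeloid-like against erythroid-like pairs (left, n = 5 and 20) and dexamethasone against untreated pairs (right, n = 13 and 12), on separate horizontal scales. On the left 33 genes lie below 0 and Ncl alone is called (red), and on the right the points lie on both sides of 0 with none called.

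Nop2, a large subunit RNA methyltransferase, had medians of 314 CPM in myeloid-like and 484 CPM in erythroid-like pairs, and the scaffold proteins Bop1 and Pes1, which work as partners in one complex, had 271 against 277 CPM and 109.9 against 219 CPM. Gnl3, which encodes nucleostemin, had medians of 416 and 555 CPM. Nop58, the box C/D partner of Nop56, had 110.6 and 265 CPM, Dkc1 had 659 and 795 CPM, and Heatr1 had 37.6 and 95.3 CPM. The ranges of the 2 classes overlapped for each of these 7 genes.

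Genes of the same pathway outside the list were fitted in the same way. Of 122 further ribosome biogenesis genes found in the tables, 117 were tested. Of these, 89 were lower and 28 higher in myeloid-like pairs, with a median of −0.50. In edgeR 0 of the 117 were called (0%), against 174 of all 6676 genes (2.61%). At an unadjusted p under 0.05 there were 15 of the 117, against 927 of all 6676 genes. By part of the pathway the medians were −0.56 for 43 small subunit genes, −0.48 for 46 large subunit genes, −0.24 for 13 exosome and trimming genes and −0.07 for 15 genes of RNA polymerase I and its factors. The 13 host genes of small nucleolar RNAs had a median of 0.06, with 6 lower and 0 called. These lists share the pathway and the libraries with the 39 genes and are no independent evidence.

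Within plate columns 1 to 4 the median change of the 39 genes was −0.51, and within columns 5 to 7 it was −0.57. Of the 39 genes, 4 were called in the first set, against 283 of 6676 genes (4.24%), and 0 in the second, in which edgeR called 0 genes in all. In untreated pairs alone the median was −0.47 with 3 of the 39 called, against 278 of 6676 genes (4.16%). In dexamethasone pairs alone it was −0.62 with 0 of the 39 called, against 6 genes (0.0899%). Limma-trend moved the median of all genes to −0.45 and that of the 39 genes to −0.89, so that changes are best read relative to the median of all genes.

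The score lay lower in the myeloid-like pairs, with 1 erythroid-like pair among them. Erythroid-like pairs scored 7.79 ± 0.68 (SD, n = 20) and myeloid-like pairs 6.06 ± 0.54 (n = 5). The myeloid-like pairs lay between 5.24 and 6.64. Among erythroid-like pairs only dexamethasone pair 12 (5.50) lay in that range, and its deeper daughter, cell 2, scored 6.78. Single myeloid-like libraries reached higher, with 7.31 in cell 2 of dexamethasone pair 10 and 7.08 in cell 1 of dexamethasone pair 6. All 10 myeloid-like libraries (5.00 to 7.31) lay inside the range of erythroid-like libraries (4.22 to 8.52). The low end of that range was cell 1 of dexamethasone pair 12. The next lowest erythroid-like library, cell 1 of dexamethasone pair 11, scored 6.65. Besides the libraries with 7.31 and 7.08, cell 2 of myeloid-like dexamethasone pair 7 (6.68) lay above it. In plate columns 1 to 4 the 2 myeloid-like pairs scored 6.64 and 6.24 and the lowest erythroid-like pair 7.61. The median difference between the classes was −1.55 over the 39 genes, of which 36 were lower, and −0.83 over all 6676 genes, of which 74.1% were lower. Myeloid-like libraries had a median of 6924 detected genes and erythroid-like libraries 7864.5, and the part of this in the score was not tested. The summed level of the 39 genes, which low genes hardly move, was 6621 to 15702 CPM in the 10 myeloid-like libraries and 16230 to 28710 CPM in the 38 erythroid-like libraries. The highest of these was cell 1 of dexamethasone pair 12, where Dkc1 and Eif6 made up most of the sum and the other 37 genes summed to 5200 CPM, below every myeloid-like library. Without Dkc1 and Eif6 the myeloid-like libraries had 5676.5 to 14119 CPM and the other 37 erythroid-like libraries 15191 to 22158 CPM.

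**Figure D3:**
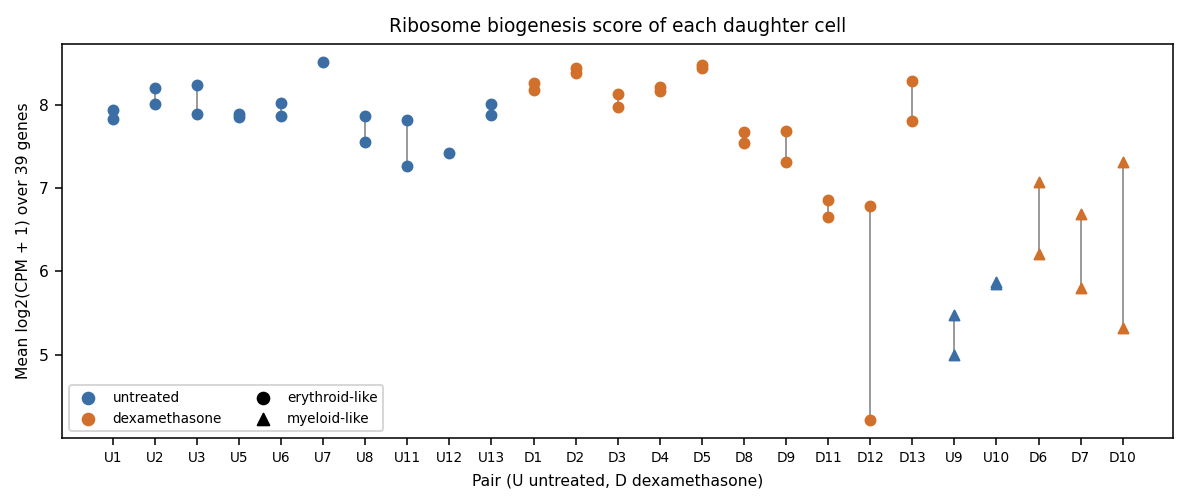
Mean log2(CPM + 1) of the 39 genes in each daughter library (points, with the daughters of a pair joined by a line), for erythroid-like (circles) and myeloid-like pairs (triangles), untreated (blue) and with dexamethasone (orange). The myeloid-like pairs average between 5.24 and 6.64, and the daughters of most pairs lie close together, with the widest gaps in dexamethasone pairs 12 (2.57) and 10 (1.99).

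Myc, the transcription factor, differed widely between pairs, so each gene was also fitted against its level. Myc stood at 138, 651 and 1697 CPM (lowest, median and highest) in the 20 erythroid-like pairs. In the myeloid-like pairs it stood at 6.91 and 1.56 CPM in untreated pairs 9 and 10, and at 1531, 197 and 1193 CPM in dexamethasone pairs 6, 7 and 10. The low end of the Myc range therefore rested on the untreated myeloid-like pairs. With treatment as a covariate, edgeR called 4 of 6675 genes (0.0599%), of which 3 had a positive slope (0.0449%) and 1 a negative one (0.015%), and 0 of the 39. At an unadjusted p under 0.05 there were 543 genes, 6 of them among the 39. The median slope was 0.03 log2 units per log2 unit of Myc for the 39 genes and 0.004 for all genes. DESeq2 called 5 of the 39, a share near that of all genes (744 of 6675, 11.1%), and limma-trend called 4, against 100 genes (1.5%).

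Bysl, Polr1b and Nob1 had the smallest p-values among positive slopes. Bysl encodes bystin, a late factor of the small subunit. Its slope was 0.88 ± 0.19 (edgeR adjusted p = 0.0738), that of Polr1b 0.54 ± 0.12 (0.0801) and that of Nob1 0.72 ± 0.16 (0.0840). DESeq2 and limma-trend called these 3 genes. In edgeR, Bysl passed the threshold when dexamethasone pair 4 (adjusted p = 0.0465), 6 (0.0318) or 10 (0.0224) was left out, and Polr1b without dexamethasone pair 11 (0.0463). Without untreated pair 10 the Bysl slope was 0.58 ± 0.19 (edgeR adjusted p = 0.676). Without both untreated myeloid-like pairs, edgeR called 0 genes in all and 0 of the 39. The slopes of Ncl (0.09 ± 0.04), Nop56 (0.14 ± 0.06) and Npm1 (0.03 ± 0.05) were shallow. The smallest p-values among negative slopes belonged to Nolc1 (−0.08 ± 0.07), Nop58 (−0.12 ± 0.10) and Noc2l (−0.19 ± 0.18), and Fbl had −0.08 ± 0.12. None of these 7 was called.

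The slopes can be set beside the E-box search. The windows of Bysl, Polr1b and Nob1 hold no CACGTG, which says only that these letters are not in those 300 bases. The 6 genes shown above with the motif had slopes of 0.03 ± 0.08 (Nop2), −0.22 ± 0.24 (Utp20), 0.33 ± 0.15 (Pes1), 0.04 ± 0.10 (Mybbp1a), 0.00 ± 0.15 (Tsr1) and 0.19 ± 0.12 (Wdr43), with 0 called. Across libraries the Pearson correlation of the score with Myc was 0.52 in all 48 libraries (Spearman 0.21), 0.32 in the 38 erythroid-like libraries (Spearman 0.04) and 0.63 in the 10 myeloid-like libraries (Spearman 0.55). Cell 1 of dexamethasone pair 12, with a score of 4.22 and a Myc level of 3.93 on the log2(CPM + 1) scale, was an extreme point. Without it the Pearson correlation in the other 37 erythroid-like libraries was −0.09, so the value of 0.32 rested on that library. Among the myeloid-like libraries Myc was 1.34 to 3.26 untreated and 7.40 to 10.83 with dexamethasone on that scale. The value of 0.63 therefore spans 2 treatments whose Myc levels do not overlap. The points share their libraries and depth. The number of detected genes gave Pearson correlations of 0.66, 0.82 and 0.43 in the sets of 48, 38 and 10 libraries (Spearman 0.65, 0.67 and 0.12). Without cell 1 of dexamethasone pair 12 the Pearson value in the other 37 erythroid-like libraries was 0.76. It was 0.27 in the 18 untreated and 0.91 in all 20 dexamethasone erythroid-like libraries.

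**Figure D4:**
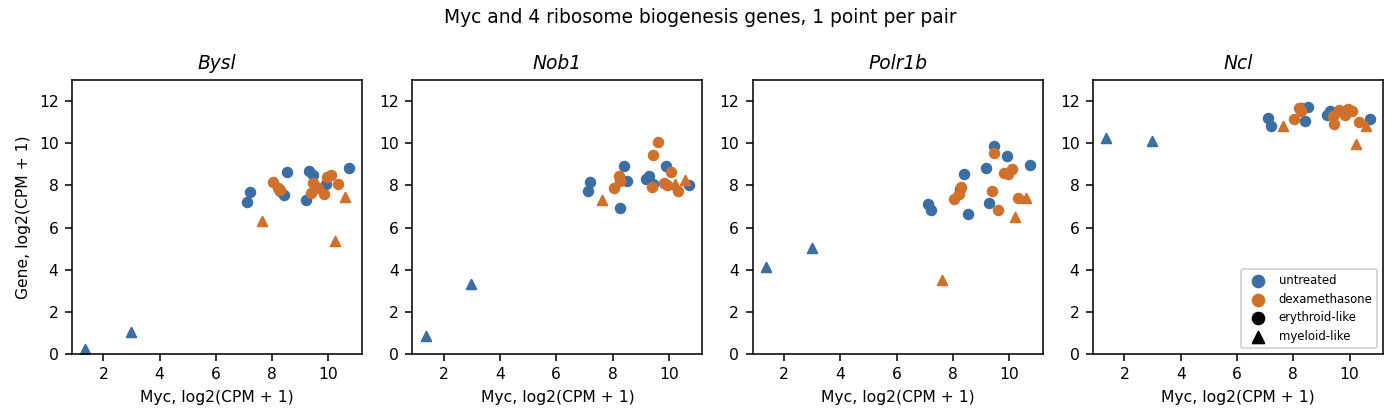
Level of Bysl, Nob1, Polr1b and Ncl against the level of Myc, both as log2(CPM + 1) of the summed counts of a pair (25 pairs), by class and treatment as marked. The points at low Myc are untreated myeloid-like pairs 9 and 10, where Bysl and Nob1 are low, while Ncl changes little along the axis.

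Inside the myeloid-like class the untreated and dexamethasone pairs differed for a few genes. Bysl stood at 1.04 and 0.19 CPM in untreated pairs 9 and 10, which is 6 counts and 1 count, and at 176.5, 78.5 and 40.2 CPM in dexamethasone pairs 6, 7 and 10. In the erythroid-like pairs its medians were 238 CPM untreated and 251 CPM with dexamethasone. Nob1 stood at 8.81 and 0.78 CPM (51 and 4 counts) and at 308, 160.2 and 264 CPM. Nolc1, which encodes a phosphoprotein that moves between the nucleolus and Cajal bodies, went the other way, with 1088 and 992 CPM untreated and 516, 158.8 and 233 CPM with dexamethasone.

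The test of that difference, the interaction of treatment with class, was chosen after the data were seen. The edgeR interaction was 7.12 ± 0.95 on the log2 scale for Bysl (adjusted p = 0.000434), 4.94 ± 1.04 for Nob1 (adjusted p = 0.0216) and −2.51 ± 0.57 for Nolc1 (adjusted p = 0.0321). The count was 3 of 39, against 67 of 6676 genes (1%). By direction, 2 of the 39 were called higher, against 56 genes (0.839%), and 1 lower, against 11 genes (0.165%). Next came Polr1a (7.21 ± 2.58), Wdr12 (−2.19 ± 0.87) and Nop16 (−1.32 ± 0.60), none of them called. Myc itself had an interaction of 7.26 ± 1.33 (edgeR adjusted p = 0.00956). Both untreated myeloid-like pairs lay in plate column 5 and the dexamethasone ones in columns 4 and 7, so that treatment, founder and column cannot be told apart here. With single myeloid-like pairs left out, the Bysl interaction ran from 6.30 (without dexamethasone pair 6) to 8.77 (without untreated pair 9). Both untreated myeloid-like pairs were near 0 for Bysl, and leaving 1 out leaves the other alone. These fits are therefore no separate support for the Bysl call. The Nob1 call was lost without untreated pair 10 (edgeR adjusted p = 0.114). The Nolc1 call was lost without untreated pair 9 (0.0702), untreated pair 10 (0.0608), dexamethasone pair 7 (0.0872) or dexamethasone pair 10 (0.0625).

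For most of the genes, sisters lay closer to each other than to the daughters of other founders. In the 23 pairs with both daughters kept, the mean difference between sisters on the log2(CPM + 1) scale was smaller than that between founders for 38 of the 39 genes, with a median ratio of 0.787, against 0.866 over 8076 genes, of which 78.8% had the smaller difference between sisters. This set holds both classes. In the 18 erythroid-like pairs it was 36 of 39 with a median ratio of 0.85, against 0.8815 and 74.4% over all genes, and in the 8 untreated ones of these 23 of 39 with 0.910. The exception over all 23 pairs was Polr1b, with a ratio of 1.01 and differences between sisters of up to 8.35 log2 units. For the score the ratio was 0.397. Within the 8 erythroid-like untreated pairs it was 0.972, so that sisters there were about as far apart as cells of separate founders.

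An F test of founder differences, fitted in edgeR to single libraries, called 4 of the 39 genes against 271 of 8015 genes (3.38%). They were Eif6 (adjusted p = 0.000113), Dkc1 (0.000168), Rrs1 (0.0138) and Npm1 (0.0188). The Eif6 and Dkc1 calls rested on 1 library. In cell 1 of dexamethasone pair 12 Eif6 stood at 8765 CPM and Dkc1 at 14745 CPM, while the sister had 718 and 404 CPM. Without that pair Rrs1 alone of the 39 was called (edgeR adjusted p = 0.0192), against 145 genes in all. The edgeR adjusted p-values were then 0.259 for Eif6, 0.818 for Dkc1 and 0.0623 for Npm1. Limma-trend called 6 of the 39, against 573 of 8015 genes (7.15%), with Rrs1 (adjusted p = 4.4e-05) but not the other 3 among them.

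Rrs1, a factor that brings the 5S ribosomal RNA particle to the large subunit (chromosome 1, 9545408 to 9547455), had the lowest ratio of the 39 genes, 0.435. That ratio comes from the same libraries as the F test. Rrs1 was nearly missing from both daughters of dexamethasone pair 6 (0.79 and 0.43 CPM) and dexamethasone pair 11 (0.48 and 0 CPM). The 1 kept daughter of untreated pair 12 had 0.71 CPM and entered no comparison of sisters. In other pairs the sisters were unlike, such as untreated pairs 5 (21.6 and 293.8 CPM) and 10 (19.8 and 0.63 CPM). The same held for dexamethasone pairs 7 (176 and 25.0 CPM) and 12 (9.51 and 111 CPM). In both daughters of untreated pair 9 it was 506 and 405 CPM. The 2 dexamethasone founders with Rrs1 nearly missing from both daughters were of different classes, 1 myeloid-like and 1 erythroid-like. In erythroid-like pairs alone the Rrs1 adjusted p was 0.0941 in edgeR, and with the plate column as a term 0.0163. Npm1 differed between sisters by a median of 0.30 log2 units and at most by 1.05, with 694.6 to 6951 CPM over all libraries.

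**Figure D5:**
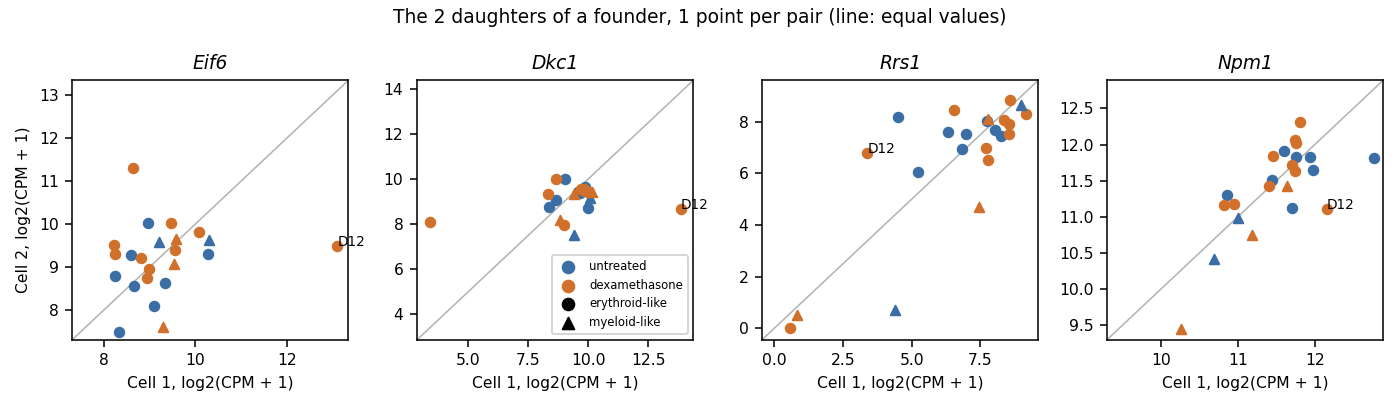
Level of Eif6, Dkc1, Rrs1 and Npm1 in cell 2 against cell 1 of the same founder, as log2(CPM + 1), for the 23 pairs with both daughters kept (line: equal values, D12: dexamethasone pair 12). Rrs1 is near 0 in both daughters of some founders and unlike between the sisters of others, while the Eif6 and Dkc1 points of pair 12 lie far from the line.

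The 39 genes varied together only in part within a class. Over the 38 erythroid-like libraries the Pearson correlation of each gene with the mean of the other 38 ran from −0.64 to 0.77, with a median of 0.45, and was positive for 37 genes. The exceptions were Eif6 (−0.64) and Dkc1 (−0.19), and Ncl had the highest value. Without the libraries of dexamethasone pair 12 the median fell to 0.13 and 27 genes were positive. Over all 38 erythroid-like libraries, with dexamethasone pair 12 included, the correlation of each gene with the number of detected genes had a median of 0.42. With Myc the median in the same 38 libraries was 0.15. Libraries share depth and capture in all these values, and their part was not tested.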

How the data were processed

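RNA of 52 single daughter cells was measured as read counts per gene. The authors deposited these counts as whole numbers without normalization, in 1 table per treatment with 0 columns left unused. Reads were aligned to the mouse build GRCm38 and counted, and STAR 2.4 and featureCounts are named, per the submitters' processing notes. The strand setting was not given in the sources used here, nor was the treatment of shared reads. Genes with close copies such as Npm1 therefore carry an uncertain split. No library was identical to another.

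The 39 genes, the other lists and the markers were chosen with earlier results of these data known. Counts of kept daughters (at least 100000 counts, which removed 4 untreated libraries and with them untreated pair 4) were summed per pair, the replicate. Depth limits low genes most, and PCR reads without molecular identifiers are not independent molecules. A library was called myeloid-like where the mean log2(CPM + 1) of 13 granulocyte and monocyte markers exceeded that of 12 erythroid markers. edgeR 4.0.16 in R 4.3.3 used TMM scaling, filterByExpr on the treatment (minimum count 10, minimum total 15) and glmQLFTest, and p-values were adjusted by Benjamini-Hochberg over every gene fitted. The class and Myc fits had treatment as a covariate, with Myc itself left out of the count of calls. The founder test kept a gene where 10 or more libraries held 5 or more counts of it. A standard error is the log2 fold change divided by the square root of F. Alternatives used DESeq2 1.42.0, limma 3.58.1, other filters, scaling, libraries and covariates. The single plate sets and single treatments in the class comparison, the fits without dexamethasone pair 12 or without both untreated myeloid-like pairs, the values without cell 1 of that pair, and the interaction with its alternatives were chosen after seeing the data. The fits were tested on simulated data.

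Named are Npm1, Ncl, Fbl, Nop56, Nop58, Dkc1, Nop2, Bop1, Pes1, Polr1b, Heatr1, Gnl3 and Eif6, in each comparison the called genes and the 3 with the smallest p in each direction where fewer were called, the most and least variable gene, and Myc, Mpo and Gata1. Genes shown for their promoter motif, their role or their extreme level were added to these. Pair numbers shared by the treatments did not pair the samples: same-numbered pairs correlated between −0.09 and 0.13, with 3 of 12 over 0.1.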

Additional observations from a re-analysis of the deposited data

Results flagged for a closer look

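In the myeloid-like group of 5 pairs, 2 values lay far from the other 4 by Dixon's test: Gnl3 in dexamethasone pair 10, at 6.64 on the log2(CPM + 1) scale, and Rrp9 in untreated pair 9, at 2.71. The test was run on 18 quantities of that group, and chance flags about 1 in 20 groups.

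The edgeR interaction of treatment with class was called for Bysl (7.12 on the log2 scale), Nob1 (4.94) and Nolc1 (−2.51), as described above. It rests on 2 untreated and 3 dexamethasone myeloid-like pairs, for which treatment, founder and plate column cannot be told apart.

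Libraries left out for their depth still held reads of the 39 genes. At least 1 count was present for 35 of them in cell 1 of untreated pair 4, for 33 in cell 1 of untreated pair 7 and for 30 in cell 2 of untreated pair 12.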

How the results depend on the processing

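The cause of each change below was not tested unless fewer samples or genes are its construction. Of 1690 values recomputed, 1547 were labelled as kept. Single genes were judged by direction and side of the threshold, and counts of called genes by a set ratio to the main value. Medians and scores of the 39 genes had to stay within a margin taken from the SD between pairs. The median over all genes was counted as kept in every run, whatever its value. Dexamethasone: no filter called 1860 genes, with 0 of the 39 in every alternative run. With the pair number as a block, 0 of the 39 were called and their median change was 0.095. The Npm1 change ran from −0.13 to 0.0054 when single pairs were left out.

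Class comparison, genes called of all and of the 39: DESeq2 591 and 7, limma-trend 372 and 6, no filter 833 and 4, Myc as covariate 63 and 0, plate columns 1 to 4 283 and 4, columns 5 to 7 0 and 0, untreated pairs 278 and 3, dexamethasone pairs 6 and 0. Of the 39, 2 were called with every non-empty library, 2 with the plate covariate, 2 with Mpo above Gata1 as the rule and 0 without the 3 pairs with a shallow library. Single pairs left out gave 78 (without untreated pair 9) to 259 genes (without dexamethasone pair 12) and 0 to 4 of the 39. Polr1c was −0.56 in limma-trend and −0.31 to 0.92 with pairs left out, Noc2l −0.60 to 1.30, and Nop10 −0.57 in untreated pairs and −0.00060 to 0.61 with pairs left out.

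Myc slope: DESeq2 744 and 5, limma-trend 100 and 4, no filter 892 and 3, untreated pairs 33 and 2, and 0 genes in erythroid-like pairs, dexamethasone pairs or without both untreated myeloid-like pairs. Without the 3 shallow pairs 2 genes were called. Of the 39, 1 was called with the plate covariate and 1 with class as covariate. Pairs left out gave 0 to 10 genes and 0 to 1 of the 39. In erythroid-like pairs the slope was 0.16 for Nolc1 and −0.16 for Npm1, and in dexamethasone pairs 0.32 for Nolc1, 0.16 for Nop58, −0.14 for Npm1 and −0.042 for Ncl. Without both untreated myeloid-like pairs Nolc1 was 0.18 and Npm1 −0.14, with class as covariate Npm1 was −0.032, and in limma-trend Nop58 was 0.069. With pairs left out Nop58 ran from −0.19 to 0.27 and Npm1 from −0.0071 to 0.048.

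Interaction: DESeq2 called 1136 genes, and the median of the 39 was 0.10 in limma-trend against −0.15. Pairs left out gave 32 to 92 genes, 1 to 4 of the 39 and medians of −0.33 to 0.27. Founder test: 158 and 2 in erythroid-like pairs, 93 and 2 within plate columns, 573 genes in limma-trend, and 145 and 1 without dexamethasone pair 12. Low genes rest on few counts in the shallow libraries.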
